A study of Homo sapiens with 2 samples.

Results

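The 10 genes described here belong to the Wnt signalling pathway: the ligands WNT5A, WNT7A and WNT10A, the Frizzled receptors FZD2, FZD6 and FZD7, the co-receptor LRP6, the secreted Dickkopf proteins DKK1 and DKK3, and the intracellular feedback gene AXIN2. They were taken as all probe sets that the array's annotation assigns to 1 of these genes alone, which gave 24 probe sets for 10 of the 19775 genes with a probe set of their own. The genes were picked with the ratios of these same arrays known, so every count over them is a description. RNA came from Ca9-22, an oral cancer line of gingival origin, transduced either with a vector for RUNX2, a runt-domain transcription factor needed for bone formation, or with an empty vector. Cells of both groups had been selected with blasticidin, and the promoter of the vector, and whether the cells were a pool or a clone, are not given in the sources used here. Each group had 1 Affymetrix array, so no replicate error can be given, no test was made, and differences were sorted by size alone, with 2-fold as the threshold.

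Wnt ligands are secreted lipid-modified glycoproteins that bind a Frizzled receptor together with LRP5 or LRP6. In the canonical branch this binding stops the destruction complex, which is built on AXIN and APC, from marking beta-catenin for degradation, and beta-catenin then acts with TCF/LEF factors on target genes that include AXIN2. Secreted inhibitors such as DKK1 bind LRP6 and keep the ligand from assembling the receptor complex. In stratified epithelium Wnt signals are known for their part in the upkeep of basal cells.

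The intensity of a probe set, called its level here, is on a linear scale in arbitrary units. The array labelled RUNX2 was multiplied by 0.966 so that both arrays had the same 2% trimmed mean. A probe set was called measured where it exceeded the array's median, 51.8 on the scaled array labelled RUNX2 or 55.3 on the empty vector array, and a value below that floor was raised to it before a ratio was taken. Each gene was represented by its brightest measured probe set on average over both arrays. The targeted gene did not settle the labels: of its 3 measured probe sets, 216994_s_at read 854 on the array labelled RUNX2 and 204 on the empty vector array, 221282_x_at read 353 on the array labelled RUNX2 and 102 on the empty vector array, and 232231_at went the other way, with 433 on the array labelled RUNX2 and 1746 on the empty vector array. All directions below therefore rest on the labels. Among markers of the labelled cell type, 5 of 8 epithelial genes, keratinocyte genes and EPCAM, were covered by probe sets of 1 gene each. All 5 were above the floor on both arrays. Their summed levels were 22224 on the array labelled RUNX2 and 19823 on the empty vector array. Within them KRT14 was 2.69-fold higher and EPCAM 1.85-fold lower. None of 4 leukocyte markers was above the floor on either array. Of 7 fibroblast markers, 1 was above the floor on the array labelled RUNX2 and 2 on the empty vector array. Their summed levels were 1739 on the array labelled RUNX2 and 2181 on the empty vector array. COL1A1 made up most of this, with 1553 on the array labelled RUNX2 and 1937 on the empty vector array in 1556499_s_at. Its next brightest probe set, 217430_x_at, read 152 on the array labelled RUNX2 and 200 on the empty vector array. VIM read 43.9 on the array labelled RUNX2 and 92.4 on the empty vector array. Its deposited values were shared in every digit by 8 and 3 other probe sets of these arrays, in that order. Of 4 endothelial markers, 2 were above the floor on both arrays, among them VWF at 55.2 on the array labelled RUNX2 and 75.02 on the empty vector array. PECAM1 was measured in 1559921_at alone, at 55.5 on the array labelled RUNX2 and 69.4 on the empty vector array. Its deposited values there were shared in every digit by 5 and 19 other probe sets, in that order. The part of other cells in the Wnt values was not tested.

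DKK1 was 2.01-fold higher on the array labelled RUNX2, whereas the receptor FZD2 was 2.16-fold lower by the probe set that represents it. The ligands WNT7A and WNT10A were lower by less than 2-fold. FZD6, LRP6, FZD7, DKK3 and AXIN2 differed by 1.24-fold at most in the probe sets that represent them, and WNT5A was under the floor on both arrays. Of the 10 genes 9 were measured. The 2-fold threshold was passed upwards by 1 of them and downwards by 1. Among all 12729 measured genes 180 passed it upwards, which is 1.41%, and 187 downwards, which is 1.47%. With equal medians as the scaling these became 229 higher and 137 lower genes. Since the genes were chosen on this contrast, nothing is read from the members' share. Of the 9 genes 2 had a log2 ratio above 0 and 7 below it, with a median of -0.29, against a median of -0.06 over all measured genes, of which 57.4% lay below 0.

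**Figure D1:**
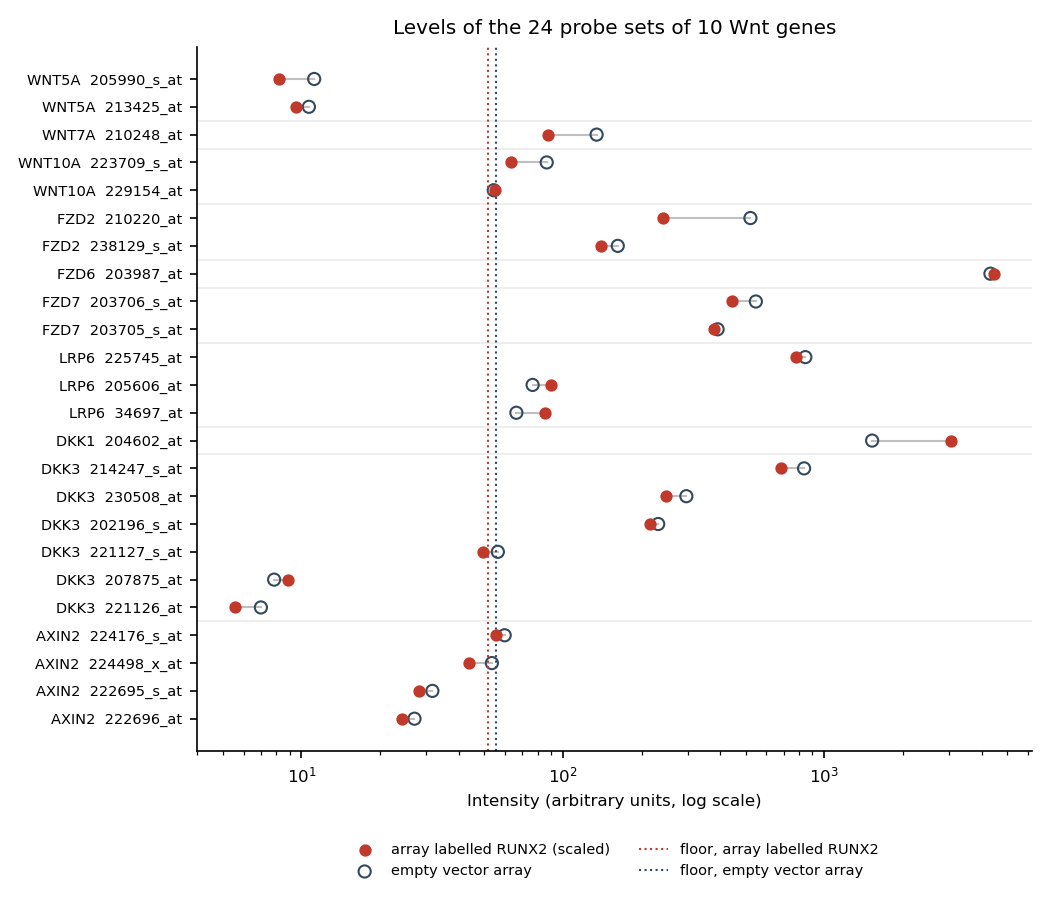
Level of each of the 24 probe sets on the array labelled RUNX2 (filled) and on the empty vector array (open), on a logarithmic axis of intensity in arbitrary units, with the floor of each array as a dotted line; each point is 1 array. DKK1 stands apart to the right on the array labelled RUNX2, FZD2 210220_at stands apart to the left, and both WNT5A probe sets lie far under the floors.

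The ligands were weakly detected. WNT7A, a ligand made by epithelia, had a level of 87.4 on the array labelled RUNX2 and 135 on the empty vector array in its only probe set, 1.54-fold lower with a log2 ratio of -0.62. This placed it as the 772nd lowest of 12729 genes. WNT10A, a ligand needed for teeth, hair and other ectodermal structures, read 63.3 on the array labelled RUNX2 and 86.7 on the empty vector array in 223709_s_at, 1.37-fold lower with a log2 ratio of -0.45. Its other probe set, 229154_at, did not share that difference: it read 54.9 on the array labelled RUNX2 and 54.4 on the empty vector array, slightly less than the floor there, which gave a log2 ratio of -0.01. Genes of a level like that of WNT7A also varied between these arrays. In its level class, 1 of 12 classes of near-equal size, the log2 ratios of 1061 genes had an SD of 0.439, a spread across genes and not a replicate error.

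WNT5A, the ligand best known for signalling without beta-catenin, is often studied in invasive tumours. Its probe set 205990_s_at read 8.19 on the array labelled RUNX2 and 11.2 on the empty vector array, and 213425_at read 9.53 on the array labelled RUNX2 and 10.7 on the empty vector array. All 4 values were far under the floors, so no ratio is given for this gene.

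Of the 3 ligands and DKK1, RefSeq promoter windows were at hand, running from 250 bases before to 50 bases after the start of the gene, and the other 6 genes, FZD2, FZD6, FZD7, LRP6, DKK3 and AXIN2, had none. The windows were searched on both strands for the letters of the RUNX motif, TGTGGT or otherwise TGCGGT. They were also searched for those of the TCF/LEF motif, CTTTGAT or otherwise CTTTGTT, with CTTTGAA as the third form and CTTTGTA as the fourth. Of all 35116 windows of 300 bases, 19.6% held RUNX letters and 13.8% held TCF/LEF letters. The window of WNT7A, which differed more than WNT10A, is shown as the contrast to that of DKK1 further down. It held 0 matches of either kind in a sequence of 80.3% G and C, against a median of 58.7% over all windows. It lies at chr3:13880022-13880321 (GRCh38.p14) on the minus strand and is printed 5′ to 3′ in the direction of the gene.
WNT7A promoter: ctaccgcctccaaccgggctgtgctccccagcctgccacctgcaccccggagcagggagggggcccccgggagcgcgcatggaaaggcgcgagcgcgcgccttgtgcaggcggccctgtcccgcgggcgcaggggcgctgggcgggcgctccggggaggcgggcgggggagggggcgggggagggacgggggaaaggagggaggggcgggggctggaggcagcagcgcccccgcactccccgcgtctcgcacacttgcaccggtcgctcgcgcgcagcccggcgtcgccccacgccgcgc
The window of WNT10A also held 0 matches, and of the 2 windows of WNT5A 1 held the RUNX letters TGTGGT at bases 25 to 30, counted from 1 at its 5′ end. A match or its absence describes the letters of a window only.

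Among the receptors, FZD2 was lower and the others differed little. FZD2, a Frizzled receptor that takes part in both beta-catenin and WNT5A signalling, read 242 on the array labelled RUNX2 and 522 on the empty vector array in 210220_at, 2.16-fold lower with a log2 ratio of -1.11. It was the 131st lowest of 12729 genes. Its second probe set, 238129_s_at, read 140 on the array labelled RUNX2 and 162 on the empty vector array, 1.16-fold lower. Both probe sets were lower, but their log2 ratios were 0.90 apart, and the mean over them, -0.66, did not reach 2-fold. Across the 6165 genes with at least 2 measured probe sets, the log2 ratios within a gene spread with an SD of 0.293.

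FZD7, a close relative of FZD2, read 443 on the array labelled RUNX2 and 548 on the empty vector array in 203706_s_at, with a log2 ratio of -0.31. Its other probe set, 203705_s_at, had a deposited value of 390.9 on both arrays, equal in every digit, and its log2 ratio of -0.05 is the scaling factor alone. Such equal pairs occurred in 1447 of the 54613 probe sets that are not controls, and 1210 of these were under the floor on both arrays. FZD6, a receptor known for its role in the orientation of hair and epithelial cells, read 4464 on the array labelled RUNX2 and 4324 on the empty vector array. Its log2 ratio was 0.05, and it lay in the highest of the 12 level classes, where 1061 genes had an SD of 0.344.

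LRP6, the co-receptor of the canonical branch, did not go the same way in its 3 probe sets. The brightest, 225745_at, read 779 on the array labelled RUNX2 and 847 on the empty vector array, a log2 ratio of -0.12. In the other two, 205606_at read 90.1 on the array labelled RUNX2 and 76.6 on the empty vector array, and 34697_at read 85.3 on the array labelled RUNX2 and 66.4 on the empty vector array. These gave log2 ratios of 0.23 and 0.36, so that the mean over the probe sets was 0.16, opposite in sign to the brightest.

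**Figure D2:**
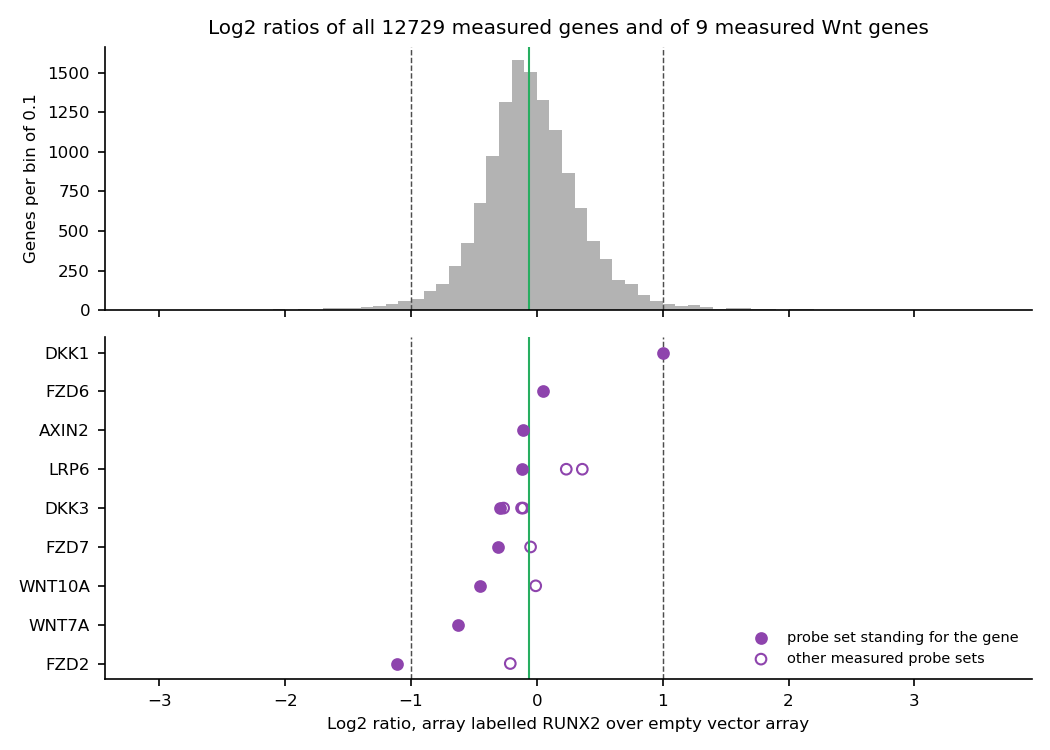
Log2 ratio of the array labelled RUNX2 over the empty vector array: the upper panel counts all 12729 measured genes in bins of 0.1, and the lower panel gives the 9 measured Wnt genes, filled for the probe set that stands for the gene and open for its others. Dashed lines mark 2-fold and the green line the median of all measured genes, -0.06; DKK1 lies on the upper 2-fold line, and only the filled FZD2 point lies beyond the lower one.

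The secreted inhibitor DKK1 was the member with the highest ratio. DKK1 binds LRP6 and blocks canonical Wnt signalling, and it is itself known as a target of beta-catenin. Its only probe set, 204602_at, read 3059 on the array labelled RUNX2 and 1525 on the empty vector array, 2.01-fold higher. The difference sat at the threshold: DKK1 was the 176th highest of 12729 genes, 180 of which passed 2-fold. At this level genes varied less between the arrays than at the level of WNT7A, with an SD of 0.344 in its class.

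The promoter window of DKK1 is shown because it is the member with the highest ratio and because its window holds both kinds of letters. It lies at chr10:52314031-52314330 (GRCh38.p14, plus strand), and capitals mark the matches.
DKK1 promoter: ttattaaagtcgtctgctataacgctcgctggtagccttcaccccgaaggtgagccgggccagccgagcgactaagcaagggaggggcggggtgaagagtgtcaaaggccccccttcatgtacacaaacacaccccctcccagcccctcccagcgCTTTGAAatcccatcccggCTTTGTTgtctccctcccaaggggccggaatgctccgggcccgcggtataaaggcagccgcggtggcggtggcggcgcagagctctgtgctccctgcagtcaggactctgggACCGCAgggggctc
The TCF/LEF letters CTTTGAA stand at bases 156 to 162 and CTTTGTT at bases 175 to 181, both in the last 100 bases before the start of the gene. The RUNX letters TGCGGT stand on the opposite strand, printed as ACCGCA, at bases 287 to 292, after the start. These are matches of short letters and were not tested as binding sites.

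DKK3, a Dickkopf relative that unlike DKK1 is not known to bind LRP6 in the same way, was lower by a small margin in each measured probe set. The brightest, 214247_s_at, read 684 on the array labelled RUNX2 and 837 on the empty vector array, 1.22-fold lower with a log2 ratio of -0.29. Next, 230508_at read 247 on the array labelled RUNX2 and 297 on the empty vector array, and 202196_s_at read 215 on the array labelled RUNX2 and 232 on the empty vector array. The fourth, 221127_s_at, was above the floor on the empty vector array alone, so its log2 ratio of -0.12 rests partly on the floors. Its deposited values were shared in every digit by 26 other probe sets on the array labelled RUNX2 and by 8 on the empty vector array. Log2 ratios ran from -0.29 to -0.11 over these 4, and 2 further probe sets were under the floor on both arrays. DKK1 and DKK3 thus lay on opposite sides of 0.

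AXIN2, the feedback scaffold that is used as a readout of canonical Wnt signalling, was barely above the floor. Of 4 probe sets only 224176_s_at was measured, at 55.5 on the array labelled RUNX2 and 59.9 on the empty vector array, a log2 ratio of -0.11. Its deposited value was shared in every digit by 5 other probe sets on the array labelled RUNX2 and by 8 on the empty vector array. The remaining 3 probe sets read between 24.3 and 43.8 on the array labelled RUNX2 and between 27.1 and 53.5 on the empty vector array, all under the floors. No difference in this readout was detectable at these levels, which does not show that there was none.

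**Figure D3:**
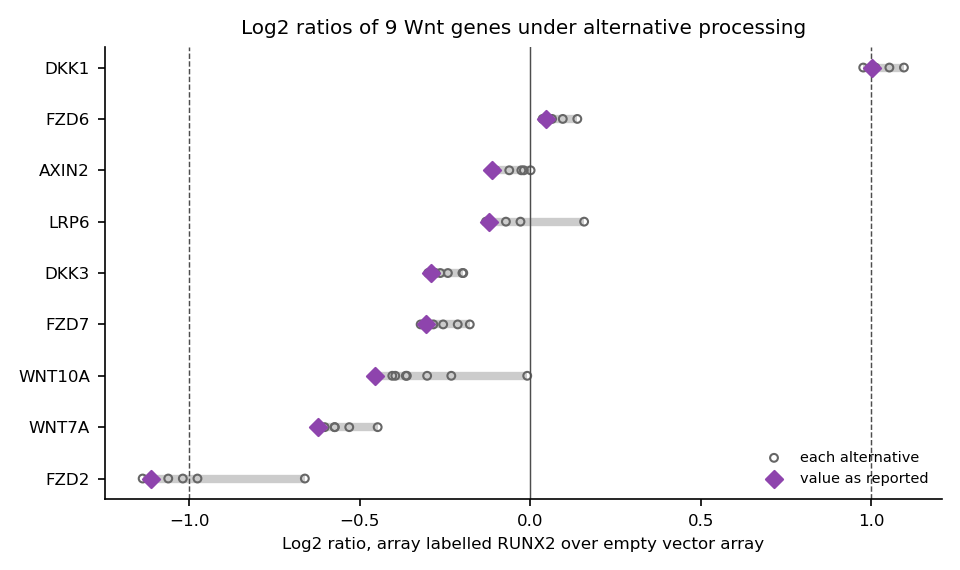
Log2 ratio of the array labelled RUNX2 over the empty vector array for the 9 measured Wnt genes: diamonds give the value reported here, open circles the value under each alternative in which the gene was measured, grey bars their range, and dashed lines 2-fold. DKK1 stays between 0.98 and 1.10, FZD2 between -1.14 and -0.66, and LRP6 and AXIN2 cross 0.

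A wider list of 119 Wnt pathway genes, the 10 included, set the members beside their pathway. It held 113 genes with a probe set of their own, of which 74 were measured. Of these DKK1 was the 1 gene past 2-fold upwards, and 2 passed it downwards, FZD2 and the ligand WNT2B, or 1.35% and 2.70% beside 1.41% and 1.47% of all measured genes. Without the 10 genes, which were chosen on this contrast, 0 of the other 65 passed 2-fold upwards and 1 downwards. The median log2 ratio of the 74 was -0.15, against -0.06 over all measured genes. At 1.5-fold 4 were higher and 7 lower, or 5.41% and 9.46%, beside 5.77% and 6.86% of all measured genes. These shares lie near those of all genes.

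Of 9 measured ligands 7 lay below 0, WNT7A and WNT10A among them, under the scaling used and under each of the 4 other scalings. Their median log2 ratio was -0.45 with the scaling used and ran from -0.40 to -0.36 with the others. Over all measured genes 57.4% lay below 0 with the scaling used and 46.5% with equal medians. WNT2B read 67.7 on the array labelled RUNX2 and 166 on the empty vector array in 238512_at, 2.45-fold lower, and it was 1.89-fold lower in 236123_at. WNT9A was 1.63-fold lower, with 77.9 on the array labelled RUNX2 and 127 on the empty vector array. WNT4, which signals in several epithelia, went the other way at 434 on the array labelled RUNX2 and 228 on the empty vector array, 1.91-fold higher in 208606_s_at and with a log2 ratio of 0.38 in 230751_at. With the floor at the 75th percentile of each array, WNT4 was the 1 ligand left.

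Of 11 measured receptors and co-receptors 10 lay below 0, with a median of -0.27. With the deposited scale or equal medians 8 of 11 did, where 51.4% and 46.5% of all measured genes lay below 0. With the mean over probe sets 8 of 11 did, beside 55.6% of all measured genes, and the median was -0.14 against -0.04. Without probe sets ending in _x_at or _s_at 5 of 7 did, beside 58.6% of all measured genes. FZD5 was 1.74-fold lower in 221245_s_at, with 399 on the array labelled RUNX2 and 695 on the empty vector array, but had a log2 ratio of 0.10 in its other probe set. Among 8 measured extracellular and surface inhibitors DKK1 alone passed 1.5-fold, beside 5.77% of all measured genes higher and 6.86% lower. ZNRF3, which is also among the feedback and target genes, fell just short at 1.499-fold higher. Its highest log2 ratio among the alternatives was 0.68, which is past 1.5-fold. The median of the 8 was -0.15. In the cytoplasm, the casein kinase gene CSNK1E was 1.68-fold higher, with 377 on the array labelled RUNX2 and 224 on the empty vector array. TNKS, whose product tankyrase marks AXIN proteins for degradation, was 1.59-fold lower, with 404 on the array labelled RUNX2 and 641 on the empty vector array.

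Feedback and target genes of the canonical branch went both ways. Of 17 listed genes 10 were measured, 4 above 0 and 6 below, which is 60% below 0 beside 57.4% of all measured genes. In the probe set standing for the gene 0 passed 2-fold, beside 1.41% higher and 1.47% lower of all measured genes. The cell cycle gene CCND1, cyclin D1, read 924 on the array labelled RUNX2 and 576 on the empty vector array, 1.60-fold higher, and was 2.14-fold higher in its other probe set. ZNRF3, which removes Frizzled receptors from the membrane, had a log2 ratio of 0.58, with 494 on the array labelled RUNX2 and 329 on the empty vector array. NKD1, an inhibitor that binds Dishevelled, was 1.65-fold lower near the floor, with 59.8 on the array labelled RUNX2 and 98.9 on the empty vector array. Its deposited values were also shared in every digit, by 9 other probe sets on the array labelled RUNX2 and by 12 on the empty vector array, and how the authors' summary gave such shared values is not given in the sources used here. The other genes of this list, AXIN2 aside, had log2 ratios of -0.29 for LEF1, -0.29 for NOTUM, -0.17 for EPHB3, -0.15 for RNF43, 0.10 for SOX9 and 0.12 for NKD2. The measured genes of this list thus showed no common direction, and their share below 0 was near that of all genes. AXIN2, NOTUM and NKD1 lay near the floor, so nothing about the activity of the pathway is read from the list.

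**Figure D4:**
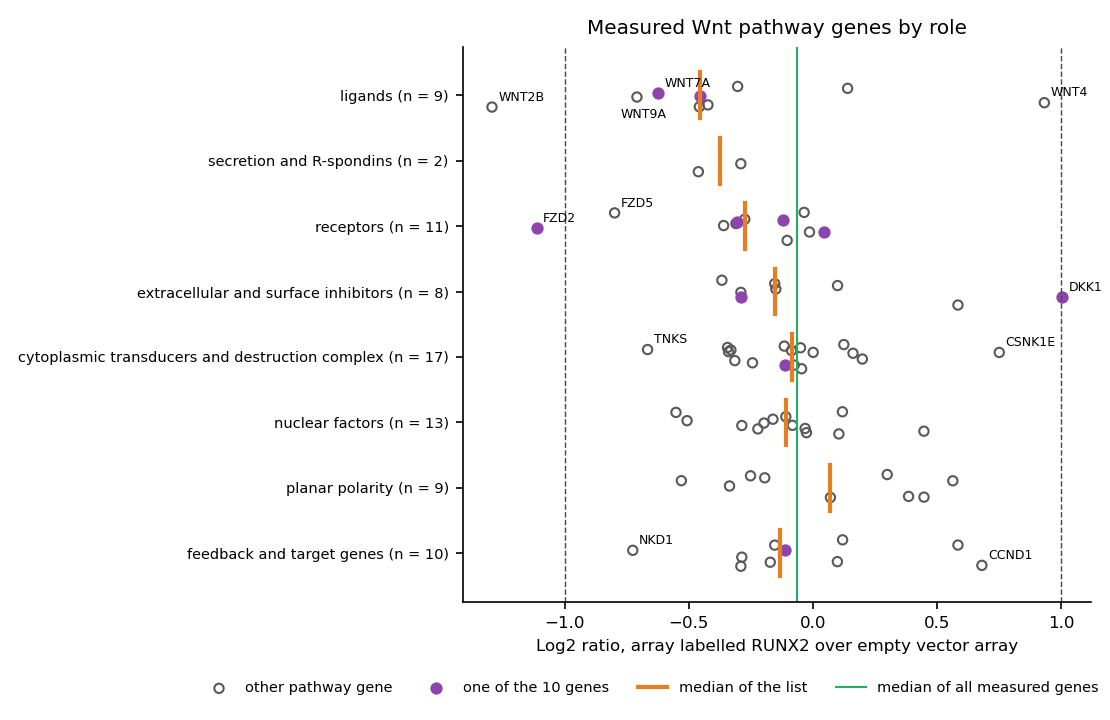
Log2 ratio of the array labelled RUNX2 over the empty vector array for each measured Wnt pathway gene, grouped by role, with the number measured in brackets; filled points are the 10 genes, open points other genes, orange bars the median of each list and the green line the median of all measured genes. Genes past 1.5-fold are named; ligands and receptors have the lowest medians among the roles with more than 2 measured genes, -0.45 and -0.27, although with the mean over probe sets the receptors, at -0.14, lie above the extracellular and surface inhibitors, at -0.15.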

How the data were processed

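The deposited table holds a linear intensity for each of 54675 probe sets on each array. MAS5 is named in the submitters' processing notes, without a version or scaling target; the genome build is not given in the sources used here. Both arrays entered the comparison, grouped by title. The 62 control probe sets were left out. Intensities were scaled by the 2% trimmed mean, floored at each array's median and turned into log2 ratios (python 3.11.15, numpy 2.4.6, pandas 2.3.3). The platform's annotation gave 1 symbol for 41091 probe sets, several for 1801 and no name for 11721. Of the probe sets with 1 symbol, 41037 had an Entrez ID found among RefSeq's genes of GRCh38.p14. These took RefSeq's symbol, whether or not it differed from the platform's. The scripts were tested on simulated data. With 1 array per group no test was made, and precision is limited by the number of arrays. The 10 genes, the pathway list, the marker lists and the motifs were chosen with earlier results of these data known.

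Genes named in the text are the 10 genes with all their probe sets, other genes of each role list past 1.5-fold (at most the 4 with the widest ratio), all measured feedback and target genes, and RUNX2; planar polarity genes and WLS were added once their values were known. The alternatives comprised 4 other scalings (none, equal medians, quantile, loess with span 0.4), a floor at the 25th or at the 75th percentile, values without a floor, the floor added as an offset, ratios averaged per gene, probe sets ending in _x_at or _s_at left out, and a 1.5-fold threshold.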

Additional observations from a re-analysis of the deposited data

How the results depend on the processing

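No paired analysis was possible because each group held 1 array. DKK1 kept its direction in all 10 alternatives (log2 ratio from 0.98 to 1.10) and fell short of 2-fold where the floor was added as an offset. FZD2 kept its direction in all 10 (from -1.14 to -0.66) and fell short of 2-fold with the offset (-0.98) and with the mean over probe sets (-0.66). LRP6 had a positive log2 ratio (0.16) with the mean over probe sets, and AXIN2 had 0.00 after loess. The other members kept their sign wherever they were measured, but for WNT10A this rested on the floor in 1 alternative. Without probe sets ending in _x_at or _s_at its log2 ratio was -0.01 instead of -0.45. The probe set left, 229154_at, had 0.01 before the floor was applied. The median of the members ran from -0.30 to -0.12. With the offset, 0 members were at least 2-fold higher and 0 lower, 0 pathway genes either way, and 114 and 91 of all genes. With the mean over probe sets, 0 members and 1 pathway gene were 2-fold lower, and 143 and 145 of all genes were higher and lower. With the floor at the 75th percentile, 1 pathway gene was lower, and 112 and 79 of all genes were higher and lower, with fewer genes measured. With equal medians, 2 pathway genes were 2-fold higher, DKK1 and WNT4, beside 229 of all genes. At 1.5-fold, 2 members were lower, 4 pathway genes were higher and 7 lower, and 734 and 873 of all genes passed. The cause of the other shifts was not tested. Without replicates no value here has an error, and levels near the floor limit WNT5A, WNT10A and AXIN2.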

Other observations

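Planar polarity genes guide the orientation of cells in the plane of an epithelium. Of 9 measured genes of this list 5 lay above 0 and 4 below, with a median log2 ratio of 0.07 and 0 past 1.5-fold. The genes below were named with their values known, so they support no pattern by family. VANGL1 read 589 on the array labelled RUNX2 and 432 on the empty vector array in its brightest probe set, and its 4 probe sets had log2 ratios of 0.45, 0.41, 0.36 and 1.16. VANGL2, in its only probe set, read 86.3 on the array labelled RUNX2 and 58.4 on the empty vector array, a log2 ratio of 0.56. PRICKLE1 was higher in all 4 probe sets, with log2 ratios from 0.11 to 0.50. Of the atypical cadherins, CELSR1 read 856 on the array labelled RUNX2 and 1236 on the empty vector array, a log2 ratio of -0.53, CELSR2 had -0.34 and -0.37 in its 2 probe sets, and CELSR3 had -0.25 and -0.27. VANGL1, VANGL2 and the 3 CELSR genes kept these directions in every alternative in which they were measured. None passed 2-fold in the probe set standing for the gene. The other measured genes of the list had 0.30 for RHOU, 0.07 for DAAM1 and -0.19 for SCRIB. WLS, the carrier that brings Wnt ligands to the cell surface, had log2 ratios of -0.46, -0.37 and 0.18 in its 3 probe sets.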
